A study of Mus musculus with 24 samples.

Results

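The genes described here encode 9 small leucine-rich proteoglycans of the mouse: biglycan (Bgn), decorin (Dcn) and asporin (Aspn) of class I, lumican (Lum), fibromodulin (Fmod), prolargin (Prelp), keratocan (Kera) and osteomodulin (Omd) of class II, and osteoglycin (Ogn) of class III. They were chosen by gene symbol, and all 9 were among the 24016 symbols of the deposited table. Where a symbol had several transcripts, the most abundant on average was taken. Poly(A) RNA had been sequenced from 24 C57BL/6 muscle samples taken on day 7 after the femoral artery of 1 hindlimb was ligated, in 4 groups of 6. The groups were the ischemic gastrocnemius of diabetic mice, the ischemic gastrocnemius of control mice, the normoxic adductor of diabetic mice and the normoxic adductor of control mice. Ligation was thus shared by all 4 groups. The diabetes is called type 2 in the title of the series, and the labels used here give neither how it was produced nor the age or sex of the mice. Because every gastrocnemius sample was ischemic and every adductor sample was normoxic, the muscle and its ischemia cannot be told apart.

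Small leucine-rich proteoglycans are secreted proteins of the extracellular matrix. Their leucine-rich repeats form a curved solenoid that binds collagen fibrils and sets how thick the fibrils grow and how far apart they lie. Many carry chondroitin, dermatan or keratan sulfate chains, and several bind growth factors of the TGF-beta family. In skeletal muscle they are made mainly by fibroblasts of the connective tissue layers and by tendon cells, and decorin is a well known proteoglycan of the perimysium. The family is best known for fibrosis, tendon strength and the transparency of the cornea.

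Most of the genes lie in clusters, and the promoters of 2 pairs, each from 1 cluster, are shown because the pairs behaved differently. Aspn and Ogn, on chromosome 13 with Omd between them, varied together from library to library. Prelp and Fmod, side by side on chromosome 1, had differences of unlike size between the muscles. The sequences are from RefSeq on build GRCm38.p6 and run from 250 bases before the transcription start to 50 after it, written along the gene's own strand. RefSeq promoters matched 7 of the 9 genes. Capitals mark matches on either strand to TATAAA, the letters of a TATA box, or to CAGAC, those of a Smad box.
Aspn, plus strand, chr13:49544193-49544492: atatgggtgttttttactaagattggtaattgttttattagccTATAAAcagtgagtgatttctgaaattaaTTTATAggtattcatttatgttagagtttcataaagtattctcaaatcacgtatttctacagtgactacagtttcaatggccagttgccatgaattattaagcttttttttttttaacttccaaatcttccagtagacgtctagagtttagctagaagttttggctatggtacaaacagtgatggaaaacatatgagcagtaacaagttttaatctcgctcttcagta
Ogn, plus strand, chr13:49607765-49608064: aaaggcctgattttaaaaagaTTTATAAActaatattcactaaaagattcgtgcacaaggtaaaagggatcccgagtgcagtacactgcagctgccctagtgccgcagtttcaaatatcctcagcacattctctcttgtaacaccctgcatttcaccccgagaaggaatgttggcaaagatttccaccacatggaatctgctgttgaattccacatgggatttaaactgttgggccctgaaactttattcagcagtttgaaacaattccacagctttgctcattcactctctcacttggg
Prelp, minus strand, chr1:133921352-133921651: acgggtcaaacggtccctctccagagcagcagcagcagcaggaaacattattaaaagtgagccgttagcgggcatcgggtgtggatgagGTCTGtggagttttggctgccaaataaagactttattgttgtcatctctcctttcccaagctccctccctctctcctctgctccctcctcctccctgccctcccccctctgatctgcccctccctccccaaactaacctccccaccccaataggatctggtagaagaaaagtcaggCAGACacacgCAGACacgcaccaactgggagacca
Fmod, plus strand, chr1:134037004-134037303: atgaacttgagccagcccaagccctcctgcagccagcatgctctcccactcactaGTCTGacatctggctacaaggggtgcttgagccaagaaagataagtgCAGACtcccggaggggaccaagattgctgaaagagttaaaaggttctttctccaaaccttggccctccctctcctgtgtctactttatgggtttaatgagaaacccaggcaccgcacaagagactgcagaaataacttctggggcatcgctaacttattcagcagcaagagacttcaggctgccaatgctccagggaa
TATAAA was found in the Aspn and Ogn promoters and in none of the other 5, while 13.6% of 32851 promoters of the same length held it. The matches began 207 and 178 bases before the transcription start in Aspn, and 229 and 227 bases before it in Ogn. Whether they work as TATA boxes, or bear on how the 2 genes varied, was not tested. CAGAC was found in the Prelp and Fmod promoters and in none of the other 5, against 49.6% of all promoters. CCAAT was found in 4 of the 7 (Prelp, Fmod, Kera and Aspn), against 37.4% of all. GGGCGG, a GC box, was found in Bgn alone, against 35.7% of all. TGANTCA, an AP-1 site, was found in none, against 7.81% of all. These are matches of letters only.

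The values were RPKM, reads per kilobase of transcript and per M reads of the library, computed by the authors over RefSeq transcripts on build mm9. Library totals ran from 7.13 to 15.6 M reads. Gapdh divided the libraries into 2 sets that no label names. The series' design names the Genome Analyzer II and the protocol of all samples the HiSeq 2000 as the sequencer, so which libraries were run on which is not given. In 14 libraries (replicates 1 to 3 of both control groups and 1 to 4 of both diabetic groups) Gapdh, a glycolytic enzyme of all cells, had 677 to 1757 RPKM. In the other 10 (control replicates 4 to 6 and diabetic replicates 5 and 6) Gapdh had 0.365 to 13.7 RPKM. These 10 were not uniform: Gapdh had 0.365 to 0.831 RPKM in their control libraries and 3.71 to 13.7 RPKM in their diabetic libraries. Comparisons of diabetic with control mice that use these 10 libraries carry this unexplained difference. Below these are called the first and the second set, and values within each set are given where they bear on a result. A set of 17 myofibre markers, such as Acta1 and Ckm, summed to between 20614 and 139324 RPKM over the 24 libraries with no marker at 0 in every library of a group. Of 24016 genes, 12382 had at least 1 RPKM in at least 6 libraries and were tested.

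**Figure D1:**
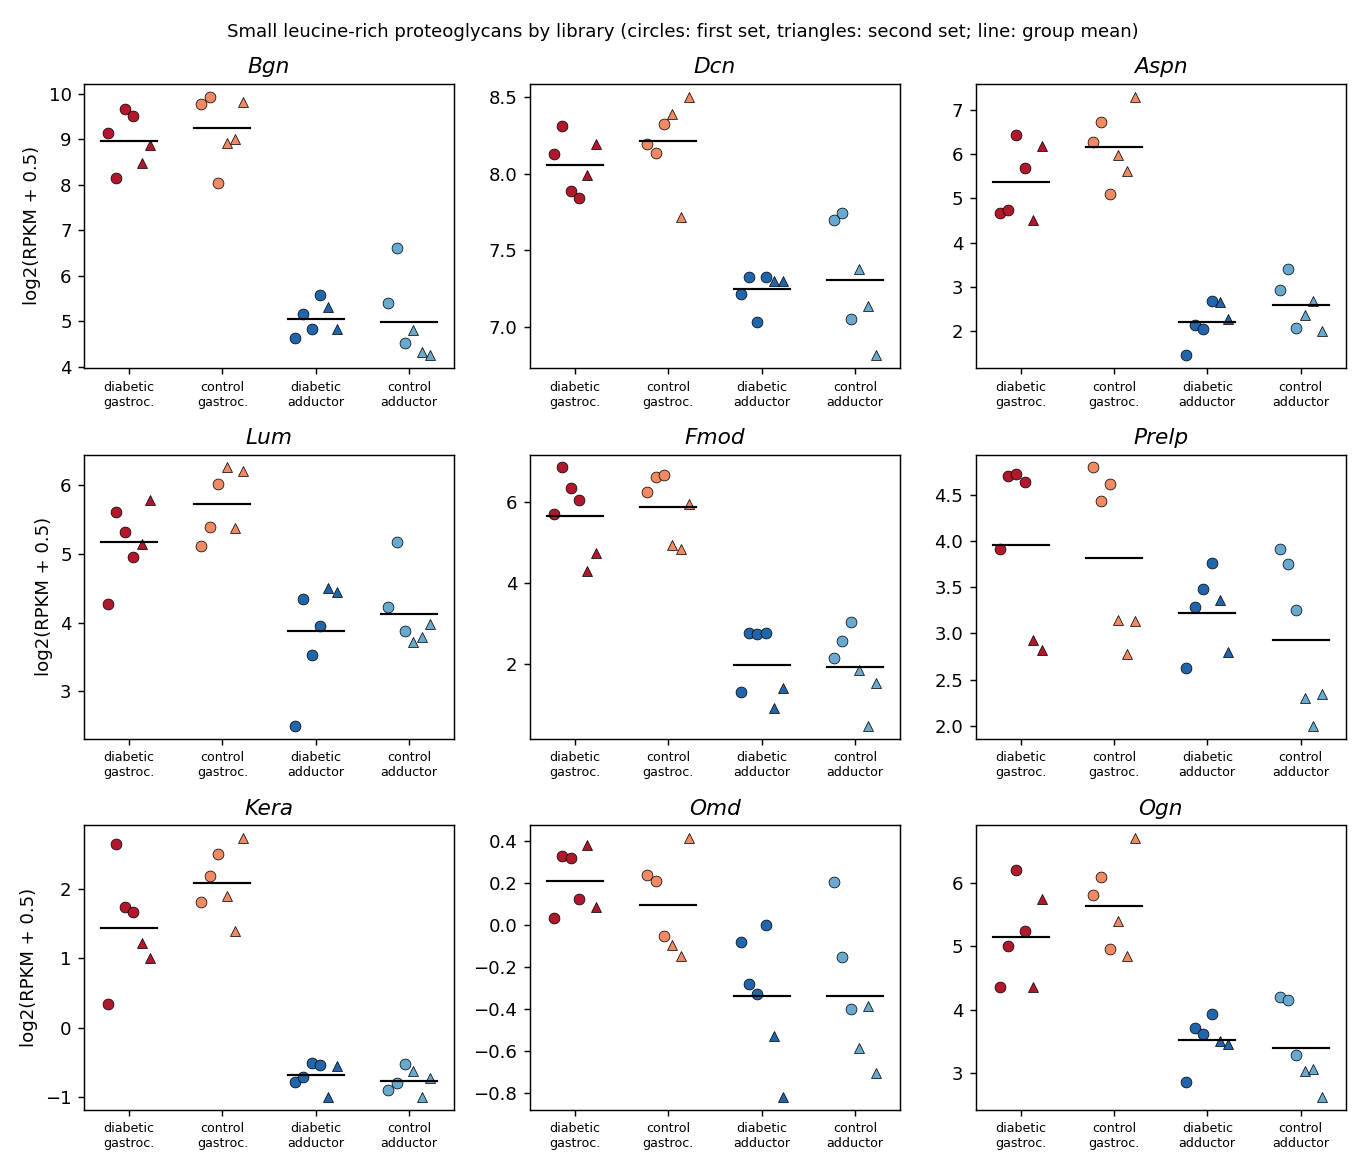
Each panel shows 1 gene, with log2(RPKM + 0.5) on the vertical axis of its own scale, 1 point per library and the group mean as a line. From left to right the groups are diabetic gastrocnemius, control gastrocnemius, diabetic adductor and control adductor, with circles for the first set of libraries and triangles for the second. Bgn, Aspn, Fmod, Kera and Ogn separate the muscles without overlap. In every group the mean RPKM of Prelp, Fmod, Bgn and Kera is lower in the second set, though for Bgn in diabetic adductor only at 33.6 against 33.7 RPKM.

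Of the 9 genes, 8 passed the filter on low values, and Omd stayed under 1 RPKM in every library. Kera passed only through its gastrocnemius values, with 11 libraries at 1 RPKM or more, so its inclusion is tied to its difference. In both diabetic and control mice, 7 of these 8 genes were higher in ischemic gastrocnemius than in adductor at an adjusted p under 0.05 in limma, and Prelp was not called. With 12 libraries required, which leaves out Kera, 6 of 7 were called in both groups of mice, where 46.3% of all tested genes were called higher in diabetic and 53% in control mice. Fewer cells of a type and less RNA per cell cannot be told apart in bulk samples such as these. Higher values there were common: 48.1% of all tested genes were called higher in diabetic mice and 54.4% in control mice, while 8.83% and 8.7% were called lower in diabetic mice and in control mice. The median log2 difference over all tested genes was 0.55 in diabetic mice and 0.66 in control mice. This shift depended on the scaling: when libraries were scaled by the median of ratios it was -0.04 in diabetic mice and -0.02 in control mice, with 3396 genes called higher and 3248 lower in diabetic mice and 3520 higher and 3279 lower in control mice, against 5958 higher and 1093 lower in diabetic mice and 6730 higher and 1077 lower in control mice on the deposited scale. Differences are therefore also given below relative to the median gene. Bgn, Fmod, Aspn and Kera lay far above it, Ogn and Lum moderately, and Dcn and Prelp close to it.

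Biglycan, which carries glycosaminoglycan chains and also acts as a signal to macrophages when released, had the greatest estimate of the 8 on the deposited scale with a pseudocount of 0.5. Other settings changed that order: Fmod was ahead in control mice of the first set alone (3.91 against 3.73), and Kera, which rests on few reads, was ahead with voom in diabetic mice (3.49 against 3.28) and in control mice (4.61 against 3.52). The lowest, median and highest Bgn values were 282, 517 and 810 RPKM in diabetic gastrocnemius, against 24.4, 31.5 and 47.4 RPKM in diabetic adductor. They were 262, 696 and 983 RPKM in control gastrocnemius, against 18.7, 25 and 98.2 RPKM in control adductor. The muscles did not overlap in either group of mice. The log2 difference was 3.91 ± 0.38 (SE) in diabetic mice, 15-fold, with an adjusted p of 2.9e-08, and 4.26 ± 0.38 in control mice, 19.1-fold, with an adjusted p of 1e-08. Relative to the median gene it was 3.36 in diabetic mice and 3.59 in control mice, above 99.5% and 99.7% of the tested genes in diabetic and in control mice. Control adductor replicate 2, at 98.2 RPKM, stood apart from the other 5 control adductor libraries, which lay between 18.7 and 42.2 RPKM. Without it the difference in control mice was 4.58.

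Decorin, the closest relative of biglycan and a binder of type I collagen and TGF-beta, differed little by comparison. Dcn had 229, 267 and 317 RPKM (lowest, median and highest) in diabetic gastrocnemius, against 130, 157 and 160 RPKM in diabetic adductor. It had 210, 307 and 363 RPKM in control gastrocnemius, against 112, 153 and 214 RPKM in control adductor. The groups were separate in diabetic mice and overlapped at 1 end in control mice. The log2 difference was 0.81 ± 0.18 in diabetic mice (adjusted p = 0.00056) and 0.91 ± 0.18 in control mice (adjusted p = 0.00014), which is 0.26 and 0.25 above the median gene in diabetic and in control mice. The call was lost in both groups of mice under 2 of the other scalings, and in diabetic mice alone under the third. Median-of-ratios scaling gave a difference of 0.13 in diabetic mice (adjusted p = 0.61) and 0.11 in control mice (adjusted p = 0.67), and with voom on recovered reads and TMM scaling 0.21 (adjusted p = 0.38) in diabetic mice and 0.16 (adjusted p = 0.52) in control mice. With quantile normalization it was 0.43 (adjusted p = 0.064) in diabetic mice and 0.53 (adjusted p = 0.026) in control mice.

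The unequal change of Bgn and Dcn does not depend on scaling each library by a single factor, since it is a ratio within each library. Quantile normalization, which resets values by rank, is not a scaling of that kind. The ratio of Bgn to Dcn RPKM had a lowest, median and highest value of 0.889, 1.81 and 3.43 in diabetic gastrocnemius, against 0.165, 0.217 and 0.296 in diabetic adductor. It was 0.817, 2.47 and 3.5 in control gastrocnemius, against 0.141, 0.169 and 0.459 in control adductor. Bgn was above Dcn in 10 of the 12 gastrocnemius libraries, 5 of 6 in each group of mice, and in 0 of the 12 adductor libraries. As a share of the summed RPKM of the 9 genes, the median for Bgn was 53.9% in diabetic gastrocnemius, against 14.1% in diabetic adductor, and 56.2% in control gastrocnemius, against 11.8% in control adductor. For Dcn the median share was 29.3% in diabetic gastrocnemius, against 64.5% in diabetic adductor, and 22.8% in control gastrocnemius, against 67.7% in control adductor. The summed RPKM itself had a median of 976 in diabetic gastrocnemius, against 238 in diabetic adductor, and 1244 in control gastrocnemius, against 212 in control adductor. Bgn and Dcn were thus the 2 most abundant of the genes in all 4 groups, and their order was turned between the muscles.

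**Figure D2:**
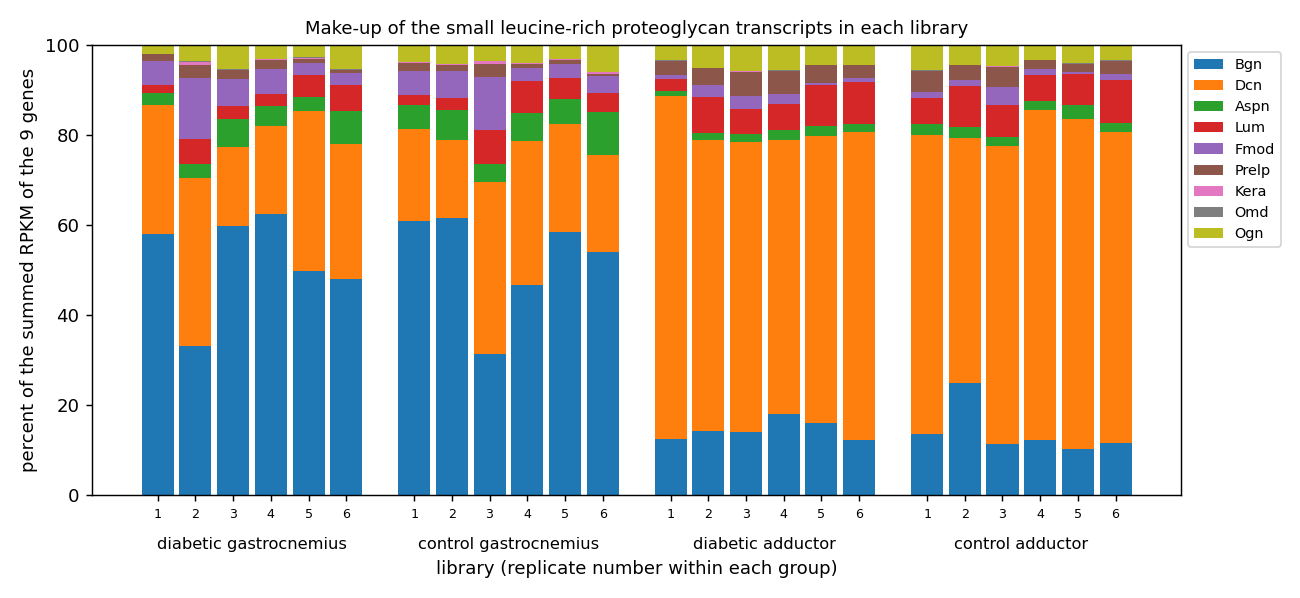
Stacked bars give each gene's percent of the summed RPKM of the 9 genes, 1 bar per library, with gastrocnemius on the left (diabetic, then control) and adductor on the right (diabetic, then control). Bgn has the greatest share in 10 of the 12 gastrocnemius bars, with group medians of 53.9% and 56.2% in diabetic and in control mice, and Dcn in all 12 adductor bars, with medians of 64.5% and 67.7% in diabetic and in control mice.

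Asporin, the third class I member, has a stretch of aspartic acids in place of the usual chain attachment region and is known in cartilage as a TGF-beta antagonist. Aspn had 22.5, 38.6 and 85.8 RPKM in diabetic gastrocnemius, against 2.27, 4.16 and 5.91 RPKM in diabetic adductor. It had 33.6, 70.1 and 157 RPKM in control gastrocnemius, against 3.52, 5.32 and 10.2 RPKM in control adductor. The muscles did not overlap, and within gastrocnemius the highest library was several times the lowest in both groups of mice. The log2 difference was 3.15 ± 0.37 in diabetic mice (8.89-fold, adjusted p = 2.8e-07) and 3.58 ± 0.37 in control mice (12-fold, adjusted p = 4.5e-08). Relative to the median gene it was 2.60 in diabetic mice and 2.92 in control mice.

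Among the class II genes, fibromodulin, a keratan sulfate proteoglycan that guides collagen cross-linking in tendon, lay closest to biglycan. Fmod had 18.9, 58.1 and 114 RPKM in diabetic gastrocnemius, against 1.38, 4.13 and 6.31 RPKM in diabetic adductor. It had 27.8, 67.7 and 100 RPKM in control gastrocnemius, against 0.879, 3.51 and 7.72 RPKM in control adductor. The muscles did not overlap in either group of mice. Gastrocnemius minus adductor gave a log2 difference of 3.67 ± 0.48 in diabetic mice (12.7-fold, adjusted p = 1.1e-06) and 3.94 ± 0.48 in control mice (15.3-fold, adjusted p = 3.6e-07). In the first set of libraries alone it was 3.83 in diabetic mice and 3.91 in control mice, and in the second set alone 3.35 in diabetic mice and 3.96 in control mice.

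Lumican, which binds the same region of collagen as fibromodulin and is abundant in the cornea, differed less than fibromodulin in its estimate. Lum had 18.7, 37 and 54.7 RPKM in diabetic gastrocnemius, against 5.15, 17.4 and 22.1 RPKM in diabetic adductor. It had 34.2, 52.6 and 75.8 RPKM in control gastrocnemius, against 12.6, 14.7 and 35.4 RPKM in control adductor. The muscles overlapped in both groups of mice, in control mice through adductor replicate 2, since the other 5 control adductor libraries lay between 12.6 and 18.3 RPKM. Between the muscles the log2 difference was 1.30 ± 0.33 in diabetic mice (adjusted p = 0.0017) and 1.60 ± 0.33 in control mice (adjusted p = 0.0002), and 1.80 in control mice without that library. Relative to the median gene it was 0.74 in diabetic mice and 0.93 in control mice. In diabetic mice the call was lost under median-of-ratios scaling, at 0.64 (adjusted p = 0.12), and under voom, at 0.72 (adjusted p = 0.085), and in control mice it was lost in the first set of libraries alone (1.08, adjusted p = 0.058).

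Keratocan, named for the cornea and also found in tendon, was nearly undetected in adductor. Kera had 0.77, 2.26 and 5.74 RPKM in diabetic gastrocnemius, against 0, 0.143 and 0.199 RPKM in diabetic adductor. It had 2.12, 3.64 and 6.13 RPKM in control gastrocnemius, against 0, 0.0866 and 0.193 RPKM in control adductor. In reads this was 18 to 152 in diabetic gastrocnemius, against 0 to 6 in diabetic adductor, and 35 to 136 in control gastrocnemius, against 0 to 5 in control adductor. On the log2 scale the difference was 2.12 ± 0.27 in diabetic mice (adjusted p = 8.6e-07) and 2.85 ± 0.27 in control mice (adjusted p = 2.4e-08) with a pseudocount of 0.5. Its size depended on the pseudocount: with 0.1 it was 3.41 in diabetic mice and 4.41 in control mice, and with 1 it was 1.54 in diabetic mice and 2.13 in control mice.

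Prolargin, which anchors basement membranes to the connective tissue beneath them, was the tested gene that was not called. Prelp had 6.58, 19.6 and 26 RPKM in diabetic gastrocnemius, against 5.69, 9.52 and 13.1 RPKM in diabetic adductor. It had 6.35, 14.7 and 27.4 RPKM in control gastrocnemius, against 3.49, 6.81 and 14.6 RPKM in control adductor. The groups overlapped widely. In log2 terms the difference was 0.74 ± 0.43 in diabetic mice (95% interval -0.14 to 1.61, adjusted p = 0.15) and 0.89 ± 0.43 in control mice (95% interval 0.01 to 1.77, adjusted p = 0.072).

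The spread of Prelp followed the set of libraries in every group but diabetic adductor. There its second set, at 6.48 to 9.78 RPKM, lay within its first, at 5.69 to 13.1 RPKM. In diabetic mice its mean was 22.7 RPKM in gastrocnemius, against 9.7 RPKM in adductor, in the first set, and 6.84 RPKM in gastrocnemius, against 8.13 RPKM in adductor, in the second set. In control mice the means were 24.2 RPKM in gastrocnemius, against 12.2 RPKM in adductor, in the first set, and 7.67 RPKM in gastrocnemius, against 4.17 RPKM in adductor, in the second set. With terms for the set, Prelp was called in diabetic mice (0.99 ± 0.24, adjusted p = 0.0011) and in control mice (1.27 ± 0.27, adjusted p = 0.00027). A fit with the replicate number as block called it too, at 0.74 (adjusted p = 0.0061) in diabetic mice and 0.89 (adjusted p = 0.0014) in control mice. Among same-numbered muscles it was higher in gastrocnemius in 5 of 6 diabetic and 6 of 6 control pairs, and each other gene of the 9 was higher in gastrocnemius in all 6 pairs of both groups. Same-numbered samples share their set, and the labels do not say that they came from 1 mouse. In the first set alone the difference was 1.21 (adjusted p = 0.0013) in diabetic mice and 0.98 (adjusted p = 0.012) in control mice. In the second set alone it was -0.21 (adjusted p = 0.5) in diabetic mice, with 2 libraries a muscle, and 0.81 (adjusted p = 0.0055) in control mice. Relative to the median gene the main difference was only 0.18 in diabetic mice and 0.23 in control mice.

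Osteomodulin, a keratan sulfate proteoglycan of bone and tooth, was barely detected. Omd had 0.524, 0.67 and 0.803 RPKM in diabetic gastrocnemius, against 0.0663, 0.309 and 0.5 RPKM in diabetic adductor. It had 0.404, 0.562 and 0.833 RPKM in control gastrocnemius, against 0.113, 0.262 and 0.652 RPKM in control adductor. These values rest on 7 to 20 reads per library in diabetic gastrocnemius, against 1 to 12 in diabetic adductor, and on 6 to 18 in control gastrocnemius, against 2 to 17 in control adductor. It was tested only when no filter was applied, with a log2 difference of 0.55 ± 0.15 (adjusted p = 0.0049) in diabetic mice and 0.43 ± 0.15 (adjusted p = 0.022) in control mice.

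Osteoglycin, also called mimecan, is a class III member found in bone, vessel walls and other connective tissues. Ogn had 20, 34.7 and 73.2 RPKM in diabetic gastrocnemius, against 6.72, 11.3 and 14.8 RPKM in diabetic adductor. It had 28.4, 48.5 and 104 RPKM in control gastrocnemius, against 5.65, 8.56 and 17.8 RPKM in control adductor. The muscles did not overlap. Gastrocnemius minus adductor gave a log2 difference of 1.64 ± 0.35 in diabetic mice (3.12-fold, adjusted p = 0.00033) and 2.25 ± 0.35 in control mice (4.74-fold, adjusted p = 7.5e-06), or 1.09 and 1.58 relative to the median gene in diabetic and in control mice. In diabetic mice of the second set alone it was 1.57 with an adjusted p of 0.05.

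**Figure D3:**
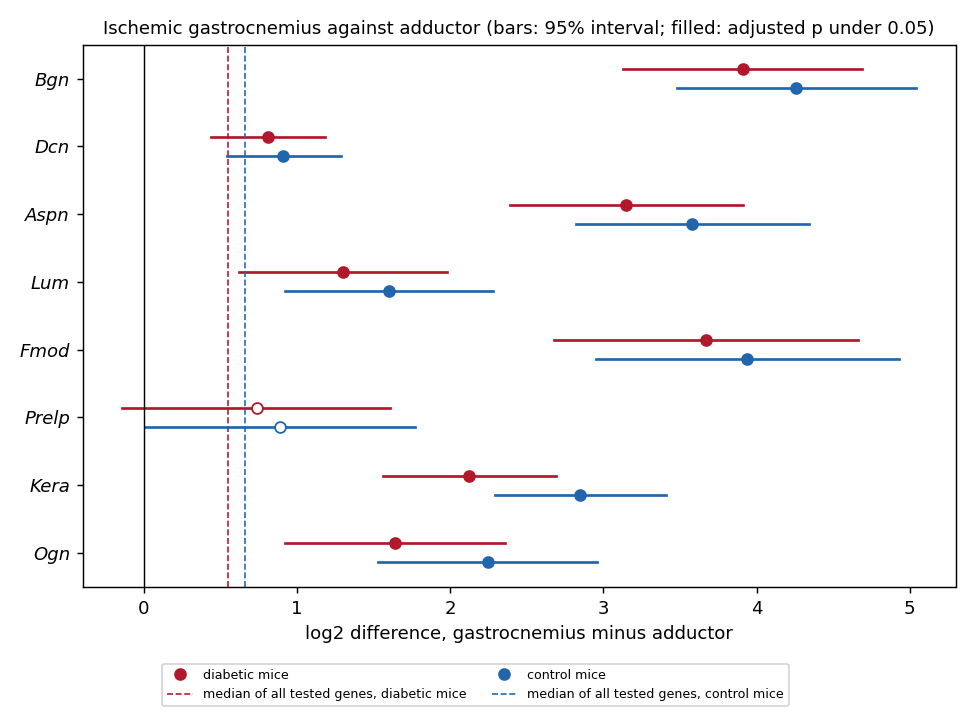
The horizontal axis is the log2 difference of ischemic gastrocnemius minus adductor for the 8 tested genes, with points for diabetic mice in red and control mice in blue, bars for the 95% interval and dashed lines for the median of all tested genes, 0.55 in diabetic mice and 0.66 in control mice. Filled points passed an adjusted p of 0.05. Bgn, Fmod and Aspn lie above 3, while the intervals of Dcn and Prelp take in the dashed lines, and the call of Dcn was lost under median-of-ratios and voom scaling.

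Counted without overlap between the muscles, 6 of the 8 tested genes were higher in gastrocnemius in diabetic mice (all but Lum and Prelp), where 29% of all tested genes were. In control mice 5 of the 8 were (all but Dcn, Lum and Prelp), where 33.3% of all tested genes were. Both counts include Kera, which passed the filter only through gastrocnemius, so its lack of overlap is tied to its inclusion. The order of the levels, on the RPKM scale that corrects for transcript length, also differed by muscle. In diabetic gastrocnemius Bgn averaged 535 ± 208 RPKM (SD, n = 6) and Dcn 268 ± 34.3, followed by Fmod at 59.1 ± 35.3, Aspn at 47.1 ± 27.1, Ogn at 39.3 ± 20.7, Lum at 37.7 ± 12.8 and Prelp at 17.4 ± 9.22. In control gastrocnemius Bgn averaged 671 ± 290 RPKM and Dcn 301 ± 53.4, followed by Aspn at 80.8 ± 44.6, Fmod at 65 ± 31.3, Lum at 54.8 ± 18.2, Ogn at 54.7 ± 28.4 and Prelp at 15.9 ± 9.31. The ranges of Fmod, Aspn, Ogn and Lum overlapped from neighbour to neighbour in both groups, so that their order there is not settled by these libraries. In diabetic adductor Dcn averaged 152 ± 11.5 RPKM and Bgn 33.7 ± 8.63, followed by Lum at 15.7 ± 6.66, Ogn at 11.2 ± 2.68, Prelp at 9.18 ± 2.75, Aspn at 4.34 ± 1.4 and Fmod at 4.03 ± 2.43. In control adductor the same order held, from Dcn at 162 ± 41.6 RPKM and Bgn at 38.1 ± 30.7 through Lum at 18.2 ± 8.64, Ogn at 10.9 ± 5.26, Prelp at 8.2 ± 4.79 and Aspn at 5.89 ± 2.54 to Fmod at 3.89 ± 2.41. Fmod was thus behind Lum, Ogn and Prelp in adductor and ahead of Prelp in gastrocnemius.

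Diabetes moved none of the genes past the threshold. In gastrocnemius limma called 0 of the 8 tested genes in diabetic against control mice, where it called 0.00808% of all tested genes. In adductor it called 0 of 8, and 0.0323% of all. Voom also called 0 of the 8 in each muscle. At an unadjusted p under 0.05 there were 2 of the 8 in gastrocnemius, Aspn and Kera, and 0 in adductor, among 156 genes (1.26%) in gastrocnemius and 339 (2.74%) in adductor over all tested genes. The adjusted p was 1 for every one of the 8 genes in both muscles.

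The estimates in gastrocnemius were below 0 for 7 of the 8 genes, and the median over all tested genes was -0.06, so most of those also lay below 0. This direction was not particular to the family: 1 of 9 fibrillar collagens, 0 of 9 tendon cell markers and 2 of 13 fibroblast markers were above 0. Of the myofibre markers, 14 of 17 were above 0. The 8 genes are also not independent of each other, with Aspn and Ogn correlated at 0.95. Aspn averaged 47.1 ± 27.1 RPKM in diabetic and 80.8 ± 44.6 RPKM in control gastrocnemius (SD, n = 6 each), a log2 difference of -0.80 with a 95% interval of -1.56 to -0.04 and an unadjusted p of 0.041 in limma. Kera averaged 2.56 ± 1.73 RPKM in diabetic and 3.95 ± 1.48 RPKM in control gastrocnemius, a log2 difference of -0.65 (95% interval -1.21 to -0.09, unadjusted p of 0.025 in limma). The diabetic and control libraries overlapped for both genes, and 0.937% of all tested genes were lower at that unadjusted threshold. For Lum the difference was -0.55 (95% interval -1.23 to 0.13), for Ogn -0.48 (-1.20 to 0.24), for Bgn -0.28 (-1.06 to 0.49), for Fmod -0.21 (-1.20 to 0.78) and for Dcn -0.15 (-0.53 to 0.22). For Prelp it was 0.14 (-0.74 to 1.02). The interval of Dcn was the narrowest of the 8, and those of Fmod and Prelp, which varied with the set of libraries, the widest.

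In adductor the estimates lay on both sides of 0. The log2 difference of diabetic minus control mice was -0.37 for Aspn (95% interval -1.13 to 0.39), -0.25 for Lum (-0.93 to 0.43) and -0.05 for Dcn (-0.43 to 0.32). It was 0.05 for Fmod (-0.94 to 1.04), 0.06 for Bgn (-0.71 to 0.84), 0.08 for Kera (-0.48 to 0.64), 0.12 for Ogn (-0.60 to 0.84) and 0.29 for Prelp (-0.58 to 1.17). Bgn in adductor turned on control replicate 2: without that library the difference was 0.39. The signs of Bgn, Fmod, Prelp and Ogn in adductor were reversed in the first set of libraries alone, and those of Dcn, Aspn, Lum and Fmod in the second set alone. Whether the effect of diabetes differed between the muscles was tested directly, and 0 of the 8 genes were called, with 0% of all tested genes called and 154 of them at an unadjusted p under 0.05, none among the 8. The difference of the effects was -0.73 ± 0.38 for Kera (unadjusted p of 0.071 in limma), -0.60 ± 0.49 for Ogn, -0.43 ± 0.52 for Aspn and -0.35 ± 0.53 for Bgn, and between -0.30 and -0.10 for the other four.

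**Figure D4:**
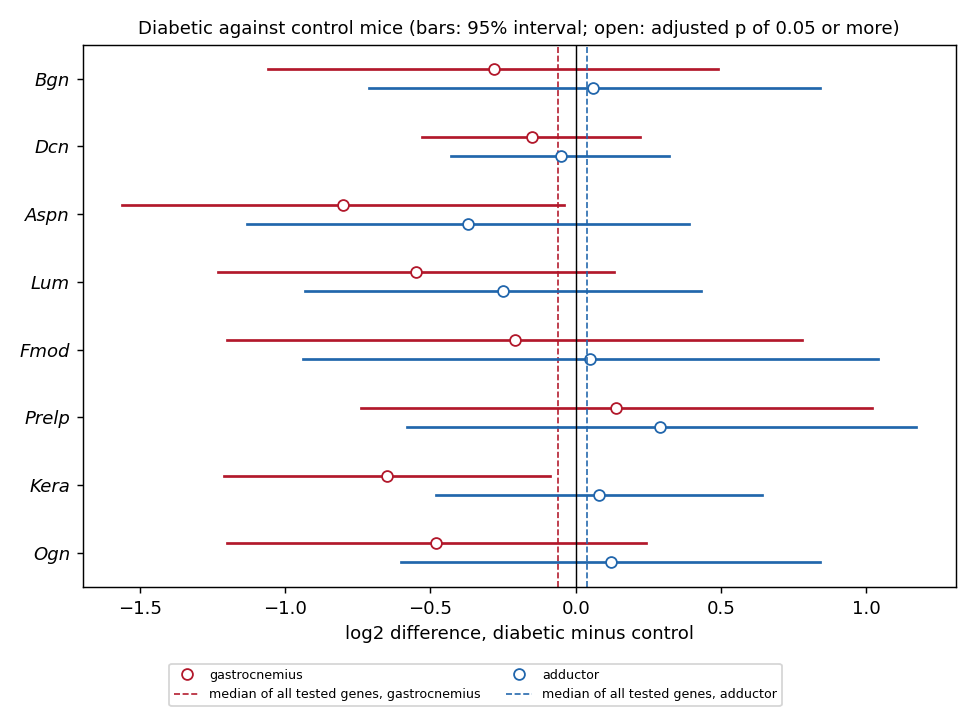
The horizontal axis is the log2 difference of diabetic minus control mice for the 8 tested genes in gastrocnemius (red) and adductor (blue), with bars for the 95% interval and dashed lines for the median of all tested genes. All points are open, since no adjusted p was under 0.05, and in gastrocnemius the intervals of Aspn (-1.56 to -0.04) and Kera (-1.21 to -0.09) lie below 0.

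The genes did not vary as a single block from library to library. After the mean of each group within each set was subtracted, Aspn and Ogn, both of the chromosome 13 cluster, had a Pearson correlation of 0.95 over the 24 libraries, and Bgn and Aspn 0.81. Bgn with Ogn and Fmod with Kera each had 0.66, and Lum with Prelp had 0.64. Bgn had 0.02 with Fmod, -0.22 with Kera and 0.22 with Dcn. These are descriptions, since all values of a library share its depth and tissue sample. Among all tested genes the closest to Bgn were Col5a1, a fibrillar collagen chain, Fstl1, a secreted follistatin-like protein, and Cmtm3, each at 0.97. The closest to Aspn were Thbs2, a matricellular protein, and Ogn, each at 0.95, and Ednra, an endothelin receptor, at 0.94. Those closest to Ogn were Aspn and Parp8 at 0.95 and Nov, a matricellular protein, at 0.93. The closest to Prelp were Lgi2 at 0.93, Ntrk2 at 0.92 and Dpp4, a surface peptidase of connective tissue fibroblasts, at 0.88. Kera was nearest to Crim1 at 0.88, Parm1 at 0.87 and Zkscan5 at 0.84, Lum to Lrrn4cl at 0.86, Pcsk6 at 0.85 and Gucy1b3 at 0.84, and Fmod to Adamtsl4 at 0.79, Pcsk6 at 0.78 and Ralgapa2 at 0.76. Dcn had no gene above 0.75, the value for Dnajc4 and Tprgl, followed by A630066F11Rik at 0.74.

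The genes lie in 3 clusters and 1 lone site on build mm9, and the size of the muscle difference was not uniform within a cluster. On chromosome 1 Prelp (chr1:135806882-135817978, minus strand) and Fmod (chr1:135934092-135944854, plus strand) stand side by side, with log2 differences of 0.74 for Prelp and 3.67 for Fmod in diabetic mice and of 0.89 for Prelp and 3.94 for Fmod in control mice. Btg2, an antiproliferative gene beyond Fmod, was higher by 0.98 ± 0.26 in diabetic mice and 1.08 ± 0.26 in control mice, and Optc, a family member of the eye on the other side, was not tested. On chromosome 10 the order is Dcn (chr10:96942134-96980796), Lum (chr10:97028135-97035337) and Kera (chr10:97069839-97076322), all on the plus strand, and the difference grew along it from 0.81 for Dcn to 1.30 for Lum and 2.12 for Kera in diabetic mice, and from 0.91 to 1.60 and 2.85 in control mice. On chromosome 13 Ecm2, Aspn (chr13:49639812-49662931), Omd (chr13:49678116-49687978) and Ogn (chr13:49703440-49719869) follow each other on the plus strand. Ecm2 was higher in gastrocnemius by 1.13 ± 0.23 in diabetic mice and 1.56 ± 0.23 in control mice, and Nol8, beyond Ogn, was not called (-0.42 ± 0.25 in diabetic mice and -0.07 ± 0.25 in control mice). Bgn (chrX:70728974-70741275, plus strand) stands alone on the X chromosome, between Haus7, higher by 0.97 ± 0.24 in diabetic mice and 1.06 ± 0.24 in control mice, and Atp2b3, a calcium pump, lower by -1.02 ± 0.27 in diabetic mice and -1.04 ± 0.27 in control mice.

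Exons of other genes overlap those of Aspn and Prelp, and the headers show no counting by strand. Cenpp, on the minus strand, spans Aspn, Omd and Ogn, and its own transcript averaged 2.24 ± 0.736 RPKM in diabetic gastrocnemius, against 0.623 ± 0.217 RPKM in diabetic adductor, and 2.11 ± 0.736 RPKM in control gastrocnemius, against 0.548 ± 0.325 RPKM in control adductor (SD, n = 6 each). In the GENCODE M21 annotation its exons share 7 bases with those of Aspn and none with those of Omd or Ogn. Exons of Gm15851 share 350 of the 3615 exon bases of Prelp on the opposite strand, where reads of the 2 genes cannot be told apart. Of 31-base words in the transcripts, 9.07% were shared with another gene for Prelp, 6.53% for Omd, 0.279% for Dcn and 0.165% for Lum, and 0% for the other five.

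Lists of related genes are read against the 48.1% of all tested genes called higher in diabetic mice and 54.4% in control mice. Counts under another scaling have another background. With median-of-ratios scaling 27.4% of all tested genes were called higher in diabetic and 28.4% in control mice. With quantile normalization the shares were 24.5% and 25.5%, and with voom 28.1% and 28.6%, in the same order. Between 3085 and 3562 of the 12382 tested genes were called lower under these 3 scalings. Genes with under 6 adductor libraries at 1 RPKM or more passed the filter only through gastrocnemius, where they are high, so their inclusion is tied to their difference, and counts without them, added after the values were seen, are given. Of 9 other genes of the wider family, 5 were tested, and these 5 were higher in gastrocnemius in diabetic and in control mice, 2 of 2 without Chad, Podnl1 and Tsku, which passed only through gastrocnemius, with a median log2 difference of 1.58 in diabetic mice and 1.67 in control mice. Tsku, a secreted Wnt and BMP modulator, was higher by 2.74 ± 0.30 in diabetic mice and 2.92 ± 0.30 in control mice. Chad, chondroadherin of cartilage and tendon, was higher by 2.45 ± 0.40 in diabetic mice and 2.83 ± 0.40 in control mice. Podn, podocan, was higher by 1.58 ± 0.25 in diabetic mice and 1.59 ± 0.25 in control mice. The direction and the count of 5 held under median-of-ratios and voom scaling, and under quantile normalization 4 were called in diabetic mice.

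The fibrillar collagens, to which these proteoglycans bind, had 9 of 9 tested chains higher in both groups of mice, with a median log2 difference of 3.74 in diabetic mice and 4.02 in control mice, and 8 of 9 under each of the 3 other scalings. Col1a2, a chain of type I collagen, averaged 821 ± 384 RPKM in diabetic gastrocnemius, against 44.3 ± 20.9 RPKM in diabetic adductor, and 1043 ± 488 RPKM in control gastrocnemius, against 63.2 ± 65.8 RPKM in control adductor. Its log2 difference was 4.18 ± 0.44 in diabetic mice and 4.38 ± 0.44 in control mice, with Col5a1 at 4.19 ± 0.47 in diabetic and 4.31 ± 0.47 in control mice. Col5a3 was at 3.34 ± 0.35 in diabetic and 3.29 ± 0.35 in control mice, and Col27a1 at 2.00 ± 0.27 in diabetic and 2.46 ± 0.27 in control mice. Bgn, Fmod, Aspn and Kera had differences within the range of these 4 collagens, and Ogn, Lum, Dcn and Prelp lay below it. That range is not the range of all 9 chains. Col11a2, also called, averaged only 1.44 RPKM in diabetic gastrocnemius, against 0.429 RPKM in diabetic adductor. In control mice it averaged 1.23 RPKM in gastrocnemius, against 0.53 RPKM in adductor. Col11a1, Col11a2 and Col27a1 passed the filter only with their gastrocnemius values, so 6 of 6 is the count among the chains that passed in adductor alone.

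Of 24 tested enzymes that build chondroitin, dermatan and keratan sulfate chains, 18 were higher and 1 lower in diabetic mice and 19 were higher and 0 lower in control mice, with medians of 1.16 in diabetic and 1.31 in control mice. Without 10 that passed only through gastrocnemius, Chsy1 and Csgalnact1 among them, 9 of 14 were higher and 1 lower in diabetic mice and 10 higher and 0 lower in control mice. With median-of-ratios scaling 14 were higher and 2 lower in diabetic mice and 17 higher and 2 lower in control mice, and with quantile normalization 11 higher and 2 lower in diabetic mice and 12 higher and 2 lower in control mice. Chpf, a chondroitin polymerizing factor, was higher by 3.24 ± 0.28 in diabetic mice and 3.35 ± 0.28 in control mice. Chsy1, a chondroitin synthase, was higher by 2.03 ± 0.30 in diabetic mice and 2.57 ± 0.30 in control mice, and Chst14, the sulfotransferase of dermatan sulfate, by 2.01 ± 0.26 in diabetic mice and 2.26 ± 0.26 in control mice. Csgalnact1, which starts the chondroitin chain, was higher by 1.77 ± 0.28 in diabetic mice and 2.50 ± 0.28 in control mice.

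Among 14 tested genes listed as proteases that cleave or process proteoglycans, 11 were higher and 0 lower in both groups of mice, with medians of 2.16 in diabetic and 2.62 in control mice. Under each of the 3 other scalings 2 were called lower in both groups of mice. The 14 include Pcolce, which is itself no protease. Without 5 that passed only through gastrocnemius, Mmp13 among them, 6 of 9 were higher in both groups of mice. Mmp13, a collagenase, averaged 17.4 ± 9.78 RPKM in diabetic gastrocnemius, against 0.0667 ± 0.0739 RPKM in diabetic adductor, and 30.2 ± 14.1 RPKM in control gastrocnemius, against 0.105 ± 0.144 RPKM in control adductor. Mmp14, a membrane-bound collagenase that also cleaves lumican, was higher by 3.60 ± 0.33 in diabetic mice and 3.88 ± 0.33 in control mice. Mmp2 was higher by 2.56 ± 0.34 in diabetic mice and 3.05 ± 0.34 in control mice, and Pcolce, an enhancer of procollagen processing, by 2.82 ± 0.28 in diabetic mice and 2.93 ± 0.28 in control mice.

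Of 18 tested growth factors and receptors that the proteoglycans bind, 13 were higher and 1 lower in diabetic mice and 13 higher and 2 lower in control mice. Median-of-ratios scaling gave 10 higher and 3 lower in diabetic mice and 11 higher and 3 lower in control mice, quantile normalization 10 and 5 in diabetic mice and 10 and 3 in control mice, and voom 11 and 3 in each. Without Bmp2, P2rx7, Tlr2 and Wisp1, which passed only through gastrocnemius, 9 of 14 were higher in both groups of mice, with 1 lower in diabetic and 2 lower in control mice. Wisp1, a matricellular protein that binds decorin and biglycan, was higher by 3.81 ± 0.42 in diabetic mice and 4.09 ± 0.42 in control mice. Tgfb1, the growth factor that decorin and biglycan bind, averaged 39.1 ± 17 RPKM in diabetic gastrocnemius, against 4.08 ± 0.858 RPKM in diabetic adductor, and 36.9 ± 17.9 RPKM in control gastrocnemius, against 4.7 ± 2.84 RPKM in control adductor. Its log2 difference was 3.02 ± 0.33 in diabetic mice and 2.86 ± 0.33 in control mice. P2rx4, a purine receptor, was higher by 2.64 ± 0.33 in diabetic mice and 2.73 ± 0.33 in control mice, and Itgb1, an integrin chain, by 1.16 ± 0.21 in diabetic mice and 1.70 ± 0.21 in control mice. Of 18 other proteoglycans of matrix and cell surface, 16 were higher in diabetic mice and 17 in control mice, with 0 lower, among them Prg4 (lubricin) at 2.73 ± 0.37 in diabetic and 3.40 ± 0.37 in control mice. Of these 18, the other scalings called 12 or 13 higher, with 1 lower in control mice under quantile normalization, and without Gpc2, Gpc6 and Spock2, which passed only through gastrocnemius, 14 of 15 were higher in diabetic mice and 15 of 15 in control mice. Sdc1, a syndecan, was at 2.51 ± 0.35 in diabetic and 2.92 ± 0.35 in control mice, and Gpc4, a glypican, at 1.48 ± 0.24 in diabetic and 1.95 ± 0.24 in control mice. In the comparisons of diabetic with control mice, 0 genes of any of these lists were called, with limma.

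**Figure D5:**
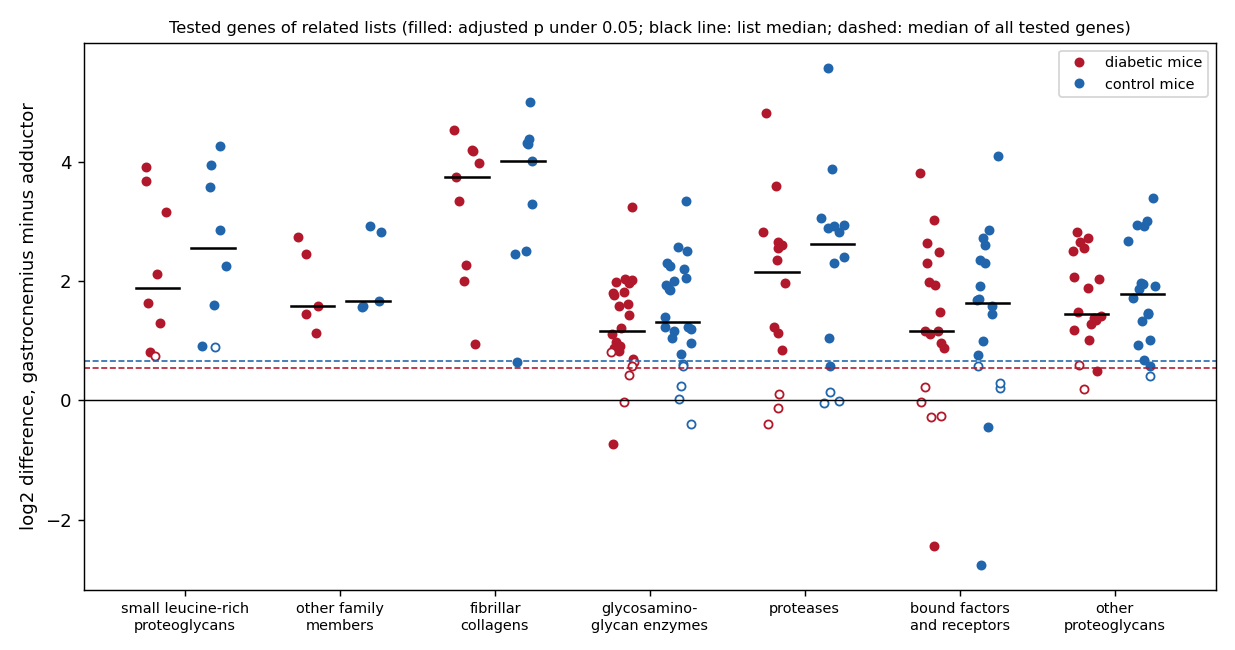
Points are the tested genes of each list, with the log2 difference of ischemic gastrocnemius minus adductor on the vertical axis, diabetic mice in red on the left and control mice in blue on the right of each pair. Filled points passed an adjusted p of 0.05, black lines are list medians and dashed lines the medians of all tested genes (0.55 in diabetic and 0.66 in control mice). The fibrillar collagens have the highest medians, 3.74 in diabetic and 4.02 in control mice. Of the small leucine-rich proteoglycans, 7 of 8 were called in each group of mice as plotted, and 5 of 8 in diabetic and 6 of 8 in control mice under median-of-ratios scaling. Of all tested genes, 48.1% in diabetic and 54.4% in control mice were called higher as plotted, and 27.4% and 28.4% under that scaling.

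Most tested markers of tendon cells and fibroblasts were also higher in gastrocnemius on the deposited scale. Of 9 tested tendon cell markers, 9 were higher in gastrocnemius in both groups of mice, and 4 of 4 without Tnmd, Comp, Egr2, Col12a1 and Tnc, which passed the filter only through gastrocnemius. The 10 listed markers summed to 277 to 803 RPKM in diabetic gastrocnemius, against 30.2 to 62.3 RPKM in diabetic adductor, and to 377 to 1131 RPKM in control gastrocnemius, against 30.3 to 111 RPKM in control adductor. Tnmd, tenomodulin, averaged 12.5 ± 4.18 RPKM in diabetic gastrocnemius, against 0.464 ± 0.314 RPKM in diabetic adductor, and 14.4 ± 4.37 RPKM in control gastrocnemius, against 0.553 ± 0.283 RPKM in control adductor. Scx, the tendon transcription factor, was higher by 2.81 ± 0.33 in diabetic mice and 3.21 ± 0.33 in control mice, Comp by 4.27 ± 0.36 in diabetic and 4.53 ± 0.36 in control mice and Thbs4 by 4.03 ± 0.31 in diabetic and 3.80 ± 0.31 in control mice. The part of tendon cells in the proteoglycan values was not tested.

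Of 13 tested fibroblast markers, 11 were higher and 0 lower in both groups of mice. Those named below were picked for the smallest p in control mice, so they do not stand for the whole list. Under the other scalings 8 or 9 were higher in diabetic mice, with 1 lower under quantile normalization, and 9 were higher and 2 lower in control mice. The 14 listed summed to 835 to 1718 RPKM in diabetic gastrocnemius, against 199 to 371 RPKM in diabetic adductor, and to 953 to 2028 RPKM in control gastrocnemius, against 283 to 615 RPKM in control adductor. Tcf21 was at 0 in every library of both diabetic groups. Postn, periostin, averaged 441 ± 283 RPKM in diabetic gastrocnemius, against 6.77 ± 4.99 RPKM in diabetic adductor, and 664 ± 339 RPKM in control gastrocnemius, against 17.8 ± 34.9 RPKM in control adductor. Mfap5, Fap and Thy1 were higher by 3.37 ± 0.32, 2.05 ± 0.26 and 2.64 ± 0.35 in diabetic mice and by 3.32 ± 0.32, 2.23 ± 0.26 and 2.55 ± 0.35 in control mice. The share of these markers in the difference was not tested either. Cartilage markers were low, and higher in gastrocnemius: the 9 in the table summed to 6.65 to 16.6 RPKM in diabetic gastrocnemius, against 0.667 to 1.54 RPKM in diabetic adductor, and to 5.01 to 19.1 RPKM in control gastrocnemius, against 0.847 to 2.52 RPKM in control adductor, with Matn1 at 0 in every adductor library. Only Sox9 of them was tested. It was called higher, by 2.76 in diabetic and 2.81 in control mice, and passed the filter only through gastrocnemius. Macrophage markers, 11 of 12 tested higher in both groups of mice, summed to 810 to 2228 RPKM in diabetic gastrocnemius, against 101 to 163 RPKM in diabetic adductor, and to 620 to 2501 RPKM in control gastrocnemius, against 56.3 to 396 RPKM in control adductor. Under each of the other scalings 1 macrophage marker was lower in both groups of mice. There 11 were higher, except 10 in diabetic mice under median-of-ratios scaling. Myofibre markers went the other way, with 6 of 17 lower and 1 higher in diabetic mice and 8 lower and 1 higher in control mice. Median-of-ratios scaling and voom gave 8 lower and 0 higher in diabetic mice and 12 lower and 1 higher in control mice, and quantile normalization 5 lower and 3 higher in diabetic mice and 6 lower and 3 higher in control mice.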

How the data were processed

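The authors deposited RPKM for RefSeq transcripts on build mm9, made with HOMER per the file headers. The submitters' processing notes also name TopHat and give no versions, and the treatment of reads that match several places is not given in the sources used here. Of the values above 0, 99.97% gave a whole number of reads within 0.01, and a floor is 3 reads. Such floors cover counting error only.

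Of 33022 transcripts, 1 per symbol was taken, the most abundant on average. Those reaching an RPKM of 1 in 6 or more libraries were fitted as log2(RPKM + 0.5) in limma 3.58.1 (R 4.3.3) with 4 group means and a variance trend, tested on simulated data first. This scale understates the fold of low genes. Benjamini-Hochberg adjustment of p-values ran over 12382 genes within each contrast, with calls at 0.05, and intervals are at 95%. Promoters, pairs and figures used Python 3.11.15. Alternatives were the pseudocount, the filter, 3 scalings including voom on recovered reads, the transcript, the sets of libraries, the replicate block and each library left out.

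The genes, the lists and the sets were chosen with earlier results of these data known. Named were all 9 genes, up to 4 called genes per list with the smallest p in control mice, the 3 genes most correlated with each, and the neighbours in each cluster. After the group means were subtracted, same-numbered gastrocnemius and adductor libraries correlated at 0.25 to 0.74. Such libraries also share their set, and set means were not subtracted. The correlation therefore cannot show that the numbers pair the muscles of 1 mouse. The main fit has no pairing, and same-numbered pairs and the replicate block are given only beside it. Same-numbered diabetic and control libraries correlated at -0.66 to 0.82 and were not paired. The labels do not say that samples came from separate animals, so that p-values cover the spread between samples, which may be technical.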

Additional observations from a re-analysis of the deposited data

Results flagged for a closer look

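Control adductor replicate 2 stood apart in 2 of the 36 combinations of gene and group examined for a single distant library. Its Bgn value was 98.2 RPKM, against 18.7 to 42.2 RPKM in the other 5 control adductor libraries, a gap of 0.704 of the whole range. Its Lum value was 35.4 RPKM, against 12.6 to 18.3 RPKM in the other 5, a gap of 0.75 of the range. Both gaps exceed Dixon's 95% critical value for 6 samples, which chance alone passes in about 1 in 20 groups. Postn and Col1a2, which are no members of the family, also had their highest control adductor values in this library, 89 and 193 RPKM, against group medians of 3.51 and 36.5 RPKM. Without this library the log2 difference of gastrocnemius minus adductor in control mice was 4.58 for Bgn and 1.80 for Lum, against 4.26 and 1.60 with it.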

How the results depend on the processing

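In the comparison of the muscles 5 to 8 genes were called in diabetic mice and 6 to 8 in control mice over the alternatives, and 7 and 7 to 8 with a library left out. The share of all tested genes called higher also moved over the alternatives. It was least with quantile normalization, 24.5% in diabetic and 25.5% in control mice. It was greatest with terms for the set, 60.5% in diabetic and 66.1% in control mice, where 8 of the 8 genes were called in both. Diabetes called 0 under each alternative. The replicate block changed no call but that of Prelp (0.74, adjusted p = 0.0061, in diabetic mice and 0.89, adjusted p = 0.0014, in control mice). The fit on the groups compared alone gives no difference of the diabetes effects. The causes of the changes below were not tested.

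For diabetic minus control gastrocnemius, Prelp turned to -0.13 with set terms, -0.12 in the first set and -0.15 in the second. In adductor, Bgn turned to -0.03 with set terms and -0.47 in the first set, Fmod to -0.02 with quantile normalization, -0.16 with set terms, -0.19 in the first set and -0.12 in the second, and Prelp and Ogn each to -0.35 in the first set. Dcn turned to 0.19, Aspn to 0.12 and Lum to 0.64 in the second set, where Gapdh also differed between diabetic and control libraries. Prelp, gastrocnemius minus adductor in diabetic mice, was -0.21 in the second set. For the difference of the effects, the first set gave 0.33 for Bgn, 0.09 for Dcn, 0.08 for Aspn, 0.37 for Lum and 0.23 for Prelp, median-of-ratios scaling gave 0.02 and voom 0.05 for Dcn, and quantile normalization gave 0.03 for Prelp.

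With a library left out, the difference in gastrocnemius ranged from -0.45 to 0.06 for Fmod and from -0.07 to 0.37 for Prelp. In adductor it ranged from -0.08 to 0.39 for Bgn, -0.15 to 0.04 for Dcn, -0.37 to 0.03 for Lum, -0.24 to 0.27 for Fmod and -0.03 to 0.28 for Ogn. The difference of the effects ranged from -0.50 to 0.03 for Fmod and -0.36 to 0.07 for Prelp. Prelp in control muscles, 0.69 to 1.10, was called without control adductor replicate 1 or 2 or control gastrocnemius replicate 5. Depth limits Kera and Omd in adductor, at 0 to 6 and 1 to 17 reads.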
